A study of Homo sapiens with 2 samples.

Results

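The 10 early response transcription factors described here are EGR1, EGR2, EGR3, NR4A1, NR4A2, NR4A3, KLF2, KLF4, KLF6 and KLF10. They were taken by name, as every probe that the platform annotation lists under one of these symbols. That gave 17 probes of 9 genes among 47322 probes and 20046 named genes, and no probe was listed under EGR2. The cells are labelled Jurkat, the name of a human leukaemic T cell line, and were cultured in RPMI medium with fetal bovine serum. One culture received Me6TREN for 24 h, and the control culture received phosphate-buffered saline (PBS) for 24 h. Me6TREN is a tripodal amine that chelates metal ions and is known as a mobiliser of blood progenitor cells, and its dose is not given in the sources used here. With a single Illumina HT12 array per condition there is no spread between replicates and no test, and every difference below is one between 2 arrays.

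The EGR proteins are zinc finger factors whose genes are switched on within minutes by growth factors, stress and antigen receptor signals, largely through serum response factor bound at CArG boxes, and the proteins NAB1 and NAB2 repress their activity. The NR4A proteins are orphan nuclear receptors, active without a known ligand and controlled mainly by how much is made. In lymphocytes EGR and NR4A genes follow antigen receptor signalling, and EGR2, EGR3 and NR4A factors restrain activated T cells. The KLF proteins bind GC-rich and CACCC sequences, and KLF2 keeps resting lymphocytes quiescent and able to recirculate.

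The detected members differed in both directions. EGR1 was 2.69-fold lower on the Me6TREN array, KLF10 by its brightest probe was 2.45-fold higher, and KLF6 was 1.98-fold higher. KLF2, detected in the control only, was lower with Me6TREN by at least 1.27-fold, a bound that fell to 1.09-fold under another normalization. No probe of EGR3, KLF4 or any NR4A gene was detected on either array. These folds are ratios of signals after background correction and quantile normalization between the arrays. Detection means a p-value under 0.01, where the p-value is the share of an array's negative control probes that were brighter, and a gene was represented by its brightest detected probe. In RNA from a whole culture, fewer cells that express a gene and less of its RNA per cell cannot be told apart.

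The promoters of EGR1, KLF6 and KLF2 are shown because these are the detected members for which a promoter sequence was at hand. The sequences are RefSeq's, of build GRCh38.p14, and each holds the 250 bases before the transcription start, 5′ to 3′ on the gene's strand. Capitals mark CArG boxes and matches to the EGR site GCGNGGGCG on either strand. The EGR1 window lies at chr5:138465229-138465478 on the plus strand, the KLF6 window at chr10:3785210-3785459 on the minus strand and the KLF2 window at chr19:16324576-16324825 on the plus strand.
EGR1: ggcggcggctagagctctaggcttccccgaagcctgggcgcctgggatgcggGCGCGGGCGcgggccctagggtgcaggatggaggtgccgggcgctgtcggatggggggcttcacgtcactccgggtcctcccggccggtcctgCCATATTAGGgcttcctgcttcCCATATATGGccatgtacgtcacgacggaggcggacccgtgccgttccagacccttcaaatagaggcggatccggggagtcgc
KLF6: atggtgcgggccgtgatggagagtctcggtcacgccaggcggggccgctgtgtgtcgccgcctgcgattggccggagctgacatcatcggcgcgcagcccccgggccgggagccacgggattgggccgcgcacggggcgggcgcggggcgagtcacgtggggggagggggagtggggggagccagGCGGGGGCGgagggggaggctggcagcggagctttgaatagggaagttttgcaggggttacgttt
KLF2: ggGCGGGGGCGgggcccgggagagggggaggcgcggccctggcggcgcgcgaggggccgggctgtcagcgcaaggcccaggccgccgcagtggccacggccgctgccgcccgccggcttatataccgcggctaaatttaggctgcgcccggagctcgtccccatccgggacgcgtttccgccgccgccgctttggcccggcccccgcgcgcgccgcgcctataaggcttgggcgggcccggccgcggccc

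The EGR1 window held 2 CArG boxes, at bases -105 to -96 and -83 to -74 counted from the transcription start, where base -1 is the last before it. Neither the KLF6 nor the KLF2 window held one. Among all 35116 windows of the same length, 1.16% held a CArG box. An EGR site was in all 3 windows printed, at -198 to -190 in EGR1, -65 to -57 in KLF6 and -248 to -240 in KLF2, against 8.41% of all windows. The sites of KLF6 and KLF2 overlap matches to the GC box GGGCGG, of which KLF6 had 2 and KLF2 had 4, against 42.6% of all windows with at least 1. The 3 windows are rich in G and C (68.4% in EGR1, 72.4% in KLF6 and 80.0% in KLF2), whereas the median over all windows was 58.0%. These matches describe the letters and do not show binding.

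Promoter windows were matched for 7 members, with 3 windows for EGR2 and 2 for NR4A1, and EGR3, NR4A2 and KLF10 were not matched. Of these 7 genes, EGR1 and EGR2 had a CArG box, and EGR1, KLF2, KLF4 and KLF6 had an EGR site. The full cyclic AMP response element TGACGTCA was in none of the 10 windows, against 1.65% of all windows, and its core TGACG was in those of EGR1, EGR2, NR4A3 and KLF4, against 21.2%. The element bound by NR4A monomers, AAAGGTCA, was in none (1.05% of all windows). CACCC was in windows of EGR1, EGR2, NR4A1 and NR4A3, against 54.7%. Both strands were searched.

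The arrays detected similar shares of their probes, 28.9% with Me6TREN and 32.5% in the control, with a median of 22 beads behind a probe on both. The lowest detected signals were 350.5 on the Me6TREN array and 333.4 on the control array. T cell markers were weak for cells labelled Jurkat. Of 11 such markers on the platform, 2 were detected on both arrays and CD3E, CD5, CD7 and LCK on neither, with summed signals of 3957.6 with Me6TREN and 4643.2 in the control. CD2 and ZAP70 were detected with Me6TREN only, and CD3D, CD3G and LAT in the control only. CD3D, with signals of 250.3 with Me6TREN and 587.4 in the control, was lower by at least 2.26-fold. That bound was past 2-fold under 2 of 6 other ways of normalizing the signals. Of 7 B cell markers on the platform, 6 were detected on both arrays, PAX5 on neither, and the summed signals were 138441.8 with Me6TREN and 139891.7 in the control. The brightest were CD74 (58333.7 with Me6TREN and 57349.9 in the control), CD79B (42799.6 with Me6TREN and 45068.6 in the control) and CD79A (33454.8 with Me6TREN and 32313.3 in the control). Most T and B cell markers thus went against the T cell label, which was not checked further. Of 8 myeloid markers CD68 was detected on both arrays, CD14 and LYZ with Me6TREN only and S100A8 in the control only. Their summed signals were 3386.2 with Me6TREN and 3355.5 in the control. Of 4 natural killer cell markers NKG7 was detected on both arrays, and of 4 erythroid markers HBB. Of 5 epithelial markers KRT18 was detected with Me6TREN only, and of 6 fibroblast markers none on either array. All these sums include background and run over lists of unequal length. The part of cell identity in the results below was not tested.

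**Figure D1:**
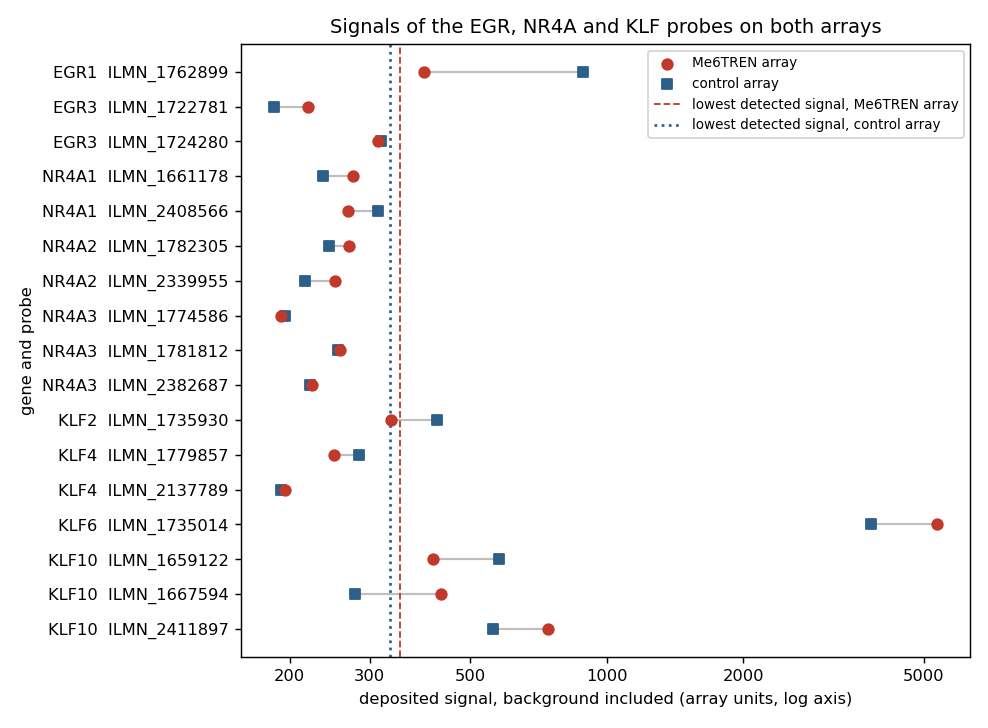
Deposited signal of each of the 17 probes (log axis, array units, background included) on the Me6TREN array (circles) and the control array (squares). The vertical lines mark the lowest detected signal of each array, 350.5 with Me6TREN and 333.4 in the control. The EGR1, KLF2, KLF6 and KLF10 probes reach past a line on at least 1 array, and all probes of EGR3, KLF4, NR4A1, NR4A2 and NR4A3 lie below both.

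EGR1, the founding member of its family and an activator of many growth and stress response genes, had a deposited signal of 395.8 on the Me6TREN array, against 886.7 on the control array. With Me6TREN its signal was only just above the lowest detected signal, and 1 of 770 negative controls was brighter (detection p-value 0.0013), while in the control none was. After normalization the log2 signals were 7.62 with Me6TREN and 9.05 in the control, a log2 ratio of -1.43. Of the alternative settings, only the 6 that normalize the signals otherwise could move the ratio of a gene with 1 detected probe, and under these it ran from -2.06 to -0.81 and was past 2-fold in 5, falling short without background correction. The probe rested on 30 beads on the Me6TREN array and 34 on the control array.

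JUN and FOS, the subunits of the AP-1 factor and immediate early genes like EGR1, had the opposite sign. JUN had signals of 5957.4 with Me6TREN and 317.5 in the control, where it was not detected, and was at least 66.0-fold higher, a bound that ran from 20.4-fold without background correction to 86.0-fold with median centring. FOS had signals of 2494.6 with Me6TREN and 419.2 in the control (17.5-fold higher, and 7.66-fold without background correction). Of 9410 genes measured, that is detected on at least 1 array, 677 (7.19%) had a lower ratio than EGR1, and 0.117% had a higher one than FOS. With the measured genes cut into 10 bins by mean signal, the bin of EGR1 had 17.1% of its 941 genes past 2-fold on the low side and 10.1% past it on the high side, and 80 of the 941 had a lower ratio than EGR1. Shares past 2-fold take a gene detected on 1 array at its bound. Ranks by ratio, here and for KLF6, take its measured ratio, so the 2 are not on the same scale.

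EGR3, which acts downstream of antigen receptors and limits T cell activation, was near background with both of its probes. ILMN_1724280 had signals of 313.3 with Me6TREN and 318.6 in the control, and ILMN_1722781 had 219.7 with Me6TREN and 184.8 in the control. The first lay at 89.4% of the lowest detected signal with Me6TREN and 95.5% of it in the control. At a detection threshold of 0.05 that probe is still undetected on the Me6TREN array (p-value 0.0662) but counts as detected on the control array (p-value 0.0234).

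The NR4A genes gave no detected signal in 7 probes. NR4A1, also called Nur77 and induced strongly by antigen receptor signals, had signals of 275.9 with Me6TREN and 236.7 in the control by ILMN_1661178, and 269.2 with Me6TREN and 312.6 in the control by ILMN_2408566. The probes thus ran in opposite directions below the detection limit, and the second counts as detected on the control array at a threshold of 0.05 (p-value 0.026). NR4A2, best known for its need in dopamine neurons, had signals of 270.5 and 251.7 on the Me6TREN array, against 244.7 and 215.8 on the control array, for ILMN_1782305 and ILMN_2339955 in this order. The 3 probes of NR4A3 lay between 191.0 and 258.4 with Me6TREN and between 194.9 and 255.4 in the control. No fold is given for these genes, since both arrays were at background.

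KLF4, which restrains lymphocyte proliferation and is also a reprogramming factor, was likewise not detected. Its probe ILMN_1779857 had signals of 250.5 with Me6TREN and 284.7 in the control, and ILMN_2137789 had 195.1 with Me6TREN and 191.7 in the control. Over all 11 undetected member probes, the median signal was 251.7 with Me6TREN and 236.7 in the control, below the array medians over all probes of 283.1 with Me6TREN and 272.1 in the control. Of these 11 probes, 7 were higher and 4 lower with Me6TREN, with differences in signal (Me6TREN minus control) between -43.3 and 39.2. Such differences were not detectable as expression at this signal.

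KLF2, the factor of lymphocyte quiescence, had signals of 333.8 with Me6TREN and 421.8 in the control. On the Me6TREN array 16 of 770 negative controls were brighter (p-value 0.0208), so it was not called detected there. The measured log2 ratio was -0.62, and against the lowest detected level of the Me6TREN array KLF2 was at least 1.27-fold lower. Under the 6 other normalizations the measured log2 ratio ran from -1.01 to -0.23. The bound ran from 1.09-fold with median centring over probes detected on both arrays to 1.74-fold with the series matrix values.

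KLF6, a broadly expressed factor and candidate tumour suppressor, was by far the brightest member, with signals of 5352.1 on the Me6TREN array and 3822.6 on the control array. Its normalized log2 signals were 12.53 with Me6TREN and 11.54 in the control, a log2 ratio of 0.99, just under the 2-fold threshold. Of the measured genes, 8.10% had a higher ratio. Among the 941 genes of its bin by mean signal, where the middle 50% of log2 ratios ran from -0.42 to 0.32, 33 had a higher one. Under the 6 other normalizations the ratio ran from 0.55 to 1.23 and was past 2-fold in 1, median centring over probes detected on both arrays. Its single probe had 7 beads on the Me6TREN array and 20 on the control array, and only 26 of 47322 probes had 7 or fewer on the Me6TREN array.

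KLF10, a repressor induced by transforming growth factor beta, had 3 probes that disagreed. ILMN_2411897, the brightest, had signals of 742.7 with Me6TREN and 562.4 in the control, a log2 ratio of 1.29. ILMN_1659122, annotated to the same transcript, had 413.8 with Me6TREN and 579.1 in the control, a log2 ratio of -0.37. ILMN_1667594, annotated to another transcript of the gene, had 430.1 with Me6TREN and 278.9 in the control, where it was not detected, and was at least 2.45-fold higher. So 2 of the 3 probes were higher with Me6TREN and 1 was lower.

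The gap between the KLF10 probes detected on both arrays was 1.66 in log2 ratio. Over 1912 genes with at least 2 probes detected on both arrays, the median gap was 0.36 and the 90th percentile 1.19, and 4.24% of genes had a gap at least as wide as that of KLF10. Probes of opposite sign occurred in 32.0% of these genes. The mean over the detected KLF10 probes gave a log2 ratio of 0.96, short of 2-fold, and by the brightest probe KLF10 was past 2-fold in 2 of the 6 other normalizations (0.61 to 1.29). EGR1, KLF2 and KLF6 have 1 probe each and allow no such check.

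**Figure D2:**
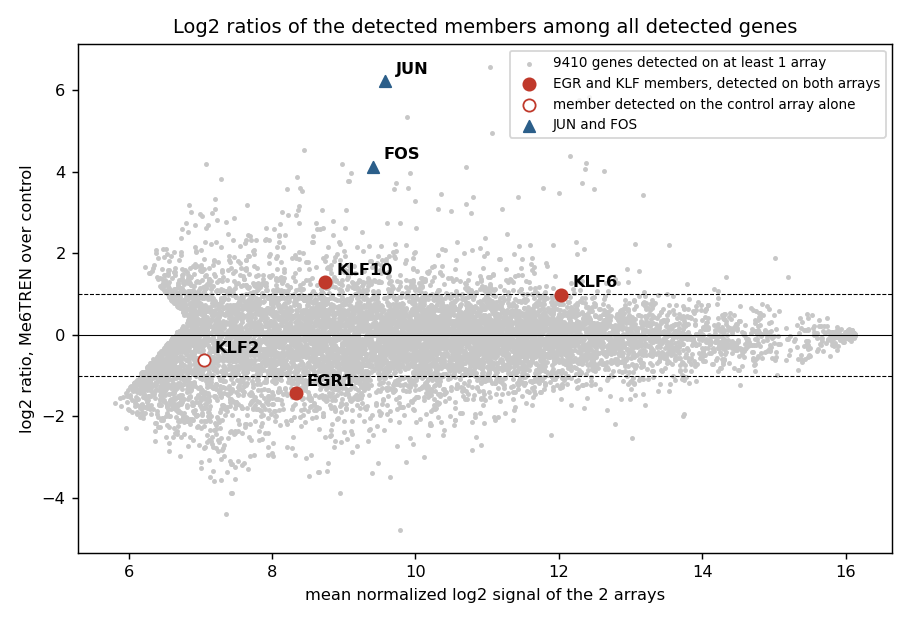
Log2 ratio of Me6TREN over control against the mean normalized log2 signal of both arrays, for the 9410 genes detected on at least 1 array (grey). Dashed lines mark 2-fold. KLF10 (1.29) and KLF6 (0.99) lie above the bulk and EGR1 (-1.43) below it, KLF2 (open circle) was detected in the control only, and JUN and FOS (triangles) lie far above all of them.

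By count, 1 of the 4 measured members was at least 2-fold higher with Me6TREN, against 6.74% of all measured genes, and 1 was at least 2-fold lower, against 9.94%. With 4 genes these counts do not set the members apart. The median log2 ratio of the 4 was 0.18 (0.32 with KLF2 at its bound), against -0.12 over all measured genes (-0.02 with bounds). Detection was also like that of other genes, since 4 of the 9 members on the platform (44.4%) passed detection on 1 array or both, against 46.9% of named genes. KLF2 had normalized log2 signals of 6.74 with Me6TREN, where it was not detected, and 7.36 in the control. Signals of different probes depend on the probe as well as on the RNA, so the members' levels are not ranked here.

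The genes nearest to EGR1 in the normalized signals of both arrays were TMEM44, FBXL6 and ENDOD1, with log2 ratios of -1.36, -1.36 and -1.53. Those nearest to KLF10 were HECTD2, CALB2 and EIF3C, with log2 ratios of 1.30, 1.27 and 1.26. Nearness was measured over 2 arrays alone, where many genes share any given pair of signals.

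The genes that work with the EGR, NR4A and KLF factors were described through 9 lists, in which 96 different genes were measured. Of these, 8 passed 2-fold on the high side (8.33%) and 9 on the low side (9.38%), near the shares of all measured genes. Of these 17 genes, 8 were past 2-fold in every alternative run, namely ATF3, BCL2L11, CCR7, CD69, ELK4, MEF2D, SOCS1 and SRF, and the other 9 fell short in at least 1. The EGR corepressors NAB1 and NAB2 both stayed under 2-fold. NAB2, itself a target of EGR1, had signals of 486.9 with Me6TREN and 519.2 in the control (log2 ratio 0.43, positive only after normalization, and -0.22 at the lowest alternative), and NAB1 had 475.1 with Me6TREN and 643.6 in the control (log2 ratio -0.13). EGR4, the fourth EGR gene, and WT1, which binds similar sites, were not detected.

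Among the other KLF and SP factors, 6 of 16 genes with a probe were measured and none passed 2-fold (median log2 ratio -0.08). Of all measured genes, 6.74% passed it on the high side and 9.94% on the low side. KLF13, a KLF factor of lymphocytes, had signals of 1307.6 with Me6TREN and 2185.5 in the control (log2 ratio -0.21). KLF12, seen only on the control array, was lower by at least 1.36-fold. SP1 and SP2, general activators at GC boxes, had log2 ratios of 0.09 and -0.20, the first negative under 2 alternatives. Of 9 measured nuclear receptors and partners of the NR4A proteins none passed 2-fold by its brightest probe either (median -0.03). Another probe of NR2C1, named after its values were seen, gave a log2 ratio of 1.05. RXRB, which can pair with NR4A1 and NR4A2, had a log2 ratio of 0.28 (negative under 2 alternatives), RARA -0.53, and the glucocorticoid receptor NR3C1 was at least 1.27-fold lower. NR1D2 passed detection in the control only, near the limit.

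Of 19 measured upstream transcription factors, 2 passed 2-fold on the high side and 3 on the low side by their brightest probes. The shares of all measured genes were 6.74% and 9.94%, and the median log2 ratio of the list was -0.15. Other probes past 2-fold were those of CREB1 (log2 ratios of 1.14 and -1.45), MEF2A (-1.11) and NFATC1 (1.09), named after their values were seen. ELK4, which binds CArG boxes together with serum response factor, had signals of 1168.9 with Me6TREN and 437.4 in the control and was 6.93-fold higher. SRF, the gene of serum response factor, had signals of 2731.8 with Me6TREN and 8726.4 in the control and was 2.46-fold lower. MEF2D, an activator of NR4A1 in lymphocytes, had signals of 532.4 with Me6TREN and 2244.0 in the control and was 4.26-fold lower. CREBBP, a coactivator of CREB, was 2.86-fold lower by its brightest probe, while its other probe gave a log2 ratio of 0.60, and the CREB coactivator CRTC2 was 2.29-fold higher. SRF and CRTC2 were named after their values were seen. HDAC4, a repressor of MEF2 factors, passed detection in the control only, with signals of 207.9 with Me6TREN and 362.6 in the control.

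Of 19 measured kinases upstream of these genes, none passed 2-fold on the high side by its brightest probe and 1 did on the low side. Over all measured genes the shares were 6.74% and 9.94%, and the median log2 ratio of the list was -0.10. MAP2K4, which activates the stress kinase JNK, was 2.33-fold lower, with log2 ratios of -1.22 and -1.26 by its 2 detected probes. MAPK8, which encodes JNK1, was seen only on the control array and was lower by at least 1.55-fold. RPS6KA4, a kinase of CREB and histone H3, had a log2 ratio of -0.93. PRKD2, a kinase of antigen receptor signalling, had one of 0.82 by its brightest probe, 1.22 by its other probe and 1.02 as their mean, which is past 2-fold. RPS6KA3 and PRKACB were named after their values were seen. Their other probes gave log2 ratios of -1.27 and 1.0, against 0.21 and 0.72 by their brightest probes.

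Reported EGR targets of lymphocytes had a median log2 ratio of 0.49 over 10 measured genes, above those of the other 8 lists. That median lies between ICAM1 (0.44) and ID3 (0.54), named after their values were seen, which were positive only after normalization. Deposited signals were 471.7 with Me6TREN and 498.4 in the control for ICAM1. For ID3 they were 3155.2 with Me6TREN and 3185.2 in the control. Of the 10, 3 were at least 2-fold higher and none lower, against 6.74% and 9.94% of all measured genes, on the arrays where EGR1 itself was lower. The 3 were SOCS1, an inhibitor of cytokine signalling (868.1 with Me6TREN and 432.3 in the control, 4.83-fold), the activation marker CD69 (5143.1 with Me6TREN and 2435.7 in the control, 3.15-fold) and the transcription factor NFIL3 (1636.6 with Me6TREN and 973.4 in the control, 2.98-fold). DGKA, a brake on T cell receptor signalling, had a log2 ratio of -0.83. Each of these genes also answers to other factors. The list was chosen with earlier results of these data known, so its share past 2-fold is a description and no test.

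Of 9 measured reported KLF2 targets, none was at least 2-fold higher and 2 were at least 2-fold lower, against 6.74% and 9.94% of all measured genes, and the median log2 ratio was 0.03. CCR7, the chemokine receptor for entry into lymph nodes, had signals of 581.8 with Me6TREN and 2200.1 in the control (3.54-fold lower), and MYC, which KLF2 is reported to repress, was 2.10-fold lower by its brightest probe. The other MYC probe gave a log2 ratio of -0.52, and MYC fell short of 2-fold with the mean of its probes (-0.79) and with median centring (-0.73). CDKN1A, which encodes the cell cycle inhibitor p21, is in this list and the next and was named after its values were seen. Its brightest probe gave a log2 ratio of 0.11 (negative under 2 alternatives), its other probe 3.99, and the mean of both 2.05. The integrin gene ITGA4 was 1.96-fold lower and S1PR4, a receptor for sphingosine 1-phosphate, had a log2 ratio of 0.46 (negative under 2 alternatives). S1PR1, the best known KLF2 target, was not detected.

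Of the reported targets of KLF4, KLF6 and KLF10, 2 of 12 measured genes passed 2-fold on the high side and 3 on the low side. The shares of all measured genes were 6.74% and 9.94%, and the median log2 ratio of the list was -0.14. With 12 genes chosen with earlier results known, these counts are a description and no test. The stress factor ATF3, reported as a target of KLF6, was 3.21-fold higher. SMAD7, an inhibitor of transforming growth factor beta signals that KLF10 is reported to repress, was seen only on the Me6TREN array. It was higher by at least 2.21-fold, a bound that was past 2-fold under 1 of the 6 other normalizations and 1.36-fold at the lowest. The receptor TGFBR2 was 2.25-fold lower. BCL2, an inhibitor of apoptosis, was 2.91-fold lower by its brightest probe, while its other detected probes gave log2 ratios of -1.39 and 0.57. CCNB1, a mitotic cyclin named after its values were seen, was 2.08-fold lower.

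Of the reported NR4A targets, 1 of 12 measured genes was at least 2-fold higher by its brightest probe and none was at least 2-fold lower. The shares of all measured genes were 6.74% and 9.94%. The median log2 ratio of the list was 0.08. The 1 gene was BCL2L11, which encodes the apoptosis promoter BIM, at 6168.4 with Me6TREN and 1232.4 in the control (8.49-fold higher), with log2 ratios of 3.09, 3.28 and 3.82 by its 3 probes. Another probe of GPR65, named after its values were seen, gave a log2 ratio of -1.12, against -0.08 by its brightest probe. E2F1, a driver of S phase, had a log2 ratio of 0.90. TNFSF10, the death ligand TRAIL, and ENO3, a muscle enolase, were seen only on the control array, and ENO3 was lower by at least 1.17-fold. No NR4A gene was detected beside these values.

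**Figure D3:**
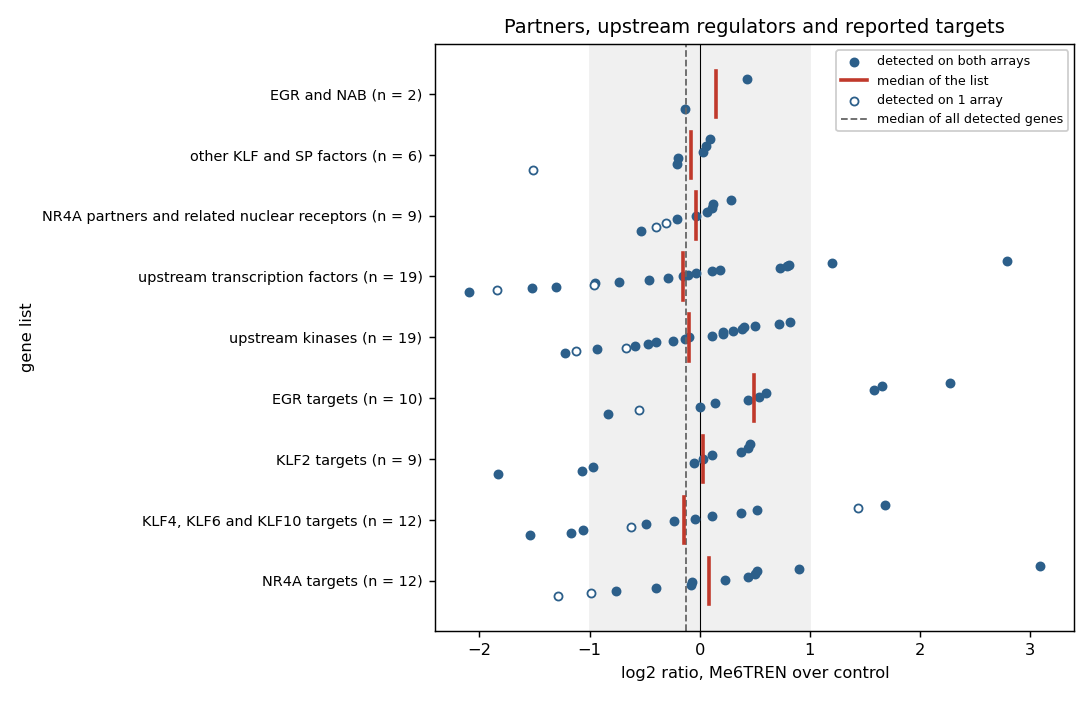
Log2 ratio of Me6TREN over control for each measured gene of the 9 lists, 1 row per list with the number of measured genes. Filled points were detected on both arrays and open points on 1, the red bars are list medians, the dashed line is the median of all measured genes (-0.12), and the grey band spans ratios under 2-fold. Open points stand at the measured ratio and not at the bound used for counts. Some, such as HDAC4 (-1.84) and KLF12 (-1.51), thus lie outside the band but were not counted as past 2-fold. The medians run from -0.15 to 0.49, and single genes such as BCL2L11 (3.09), ELK4 (2.79) and MEF2D (-2.09) lie far outside the band.

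The sign of each detected member, KLF10 by its brightest probe, held across the ways of scaling the arrays. The KLF10 probe ILMN_1659122 was negative in every normalization (-1.0 to -0.19). Distances from 0 moved with the scaling and, for EGR1, KLF2 and KLF10, also with background correction. Without that correction EGR1 lay at -0.81, KLF2 at -0.23 and KLF10 at 0.82, with a median of all genes of -0.08. That median was -0.12 in the setting used above, 0.07 with median centring over probes detected on both arrays, -0.43 with the authors' series matrix values and -0.61 with median centring over all probes, a setting added after the data were seen. Set against the median of all genes in the same setting, EGR1 lay at -1.63 to -0.73 over the 10 alternatives, KLF6 at 1.01 to 1.16, KLF10 at 0.90 to 1.39 and KLF2 at -0.60 to -0.15. GAPDH and ACTB, genes used as loading references, had log2 ratios of -0.11 and -0.07, both of them positive with median centring over detected probes and with the series matrix values. Of the genes past 2-fold, 40.4% were higher in the setting used above, 53.7% with median centring, 10.8% with the series matrix values and 8.23% with median centring over all probes.

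**Figure D4:**
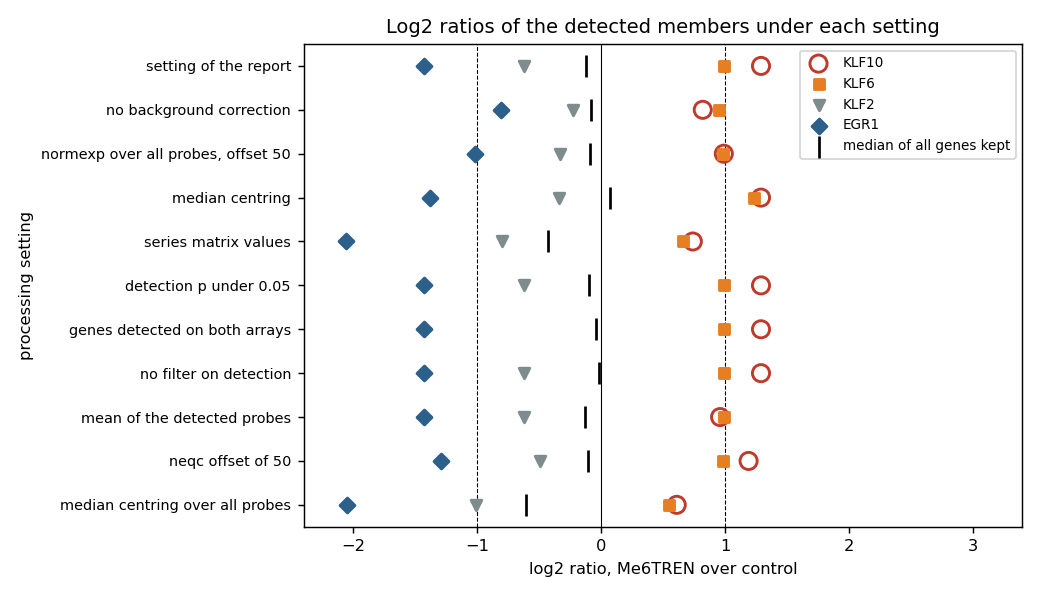
Log2 ratio of Me6TREN over control of KLF10, KLF6, KLF2 and EGR1 in the setting of the report (top row) and under each of 10 alternatives. Black ticks give the median of all genes kept in that setting, and dashed lines mark 2-fold. EGR1 and KLF2 stay left of 0 and KLF6 and KLF10 right of 0 in each row that holds them. KLF2 has no point where only genes detected on both arrays were kept. KLF10 is drawn by its brightest probe, or by the mean of its detected probes in the row of that name.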

How the data were processed

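Per the labels' protocols, RNA was extracted with Trizol, treated with DNase and labelled as biotinylated cRNA with the Ambion MessageAmp kit. The deposited table holds, per the file headers, the signal averaged over each probe's beads (a linear intensity, background included, not normalized between arrays), the bead number and a detection p-value. These deposited p-values move in steps of 1 in 770, which is a rank among negative controls. The authors' series matrix also holds intensities, on a linear scale (medians 28.8 for Me6TREN and 30.9 for the control). No source used here gives the steps that made it.

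Signals were processed with neqc of limma 3.58.1 in R 4.3.3 (background from detection p-values, offset 16, quantile normalization, log2). Quantile normalization forces 1 shared distribution on the arrays, so ratios can differ in size, and in places in order, from those of the deposited signals. Probes were named through GEO's platform annotation (30113 with 1 symbol, 8 with several, 17209 unnamed here) and Entrez IDs of RefSeq (GRCh38.p14). A gene detected on 1 array was set against the higher of the other array's lowest detected level and its own level there, and is written as at least N-fold. Such a bound belongs to the setting used above and can move with the normalization. The number of arrays limits the precision. The steps were tested on simulated data. The members and lists were chosen with earlier results of these data known. Named are all members, up to 4 genes of each list with the largest ratios, the 3 genes nearest to the highest and lowest member, JUN, FOS, GAPDH and ACTB, with other genes marked.

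Alternatives were no background correction, normexp with an offset of 50, median centring, the series matrix values floored at 99.9, detection at 0.05 or on both arrays or no filter, the mean of a gene's probes, an offset of 50 and, for counts, a 1.5-fold threshold.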

Additional observations from a re-analysis of the deposited data

How the results depend on the processing

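The count of members at least 2-fold higher, 1 as reported, was 0 without background correction, with normexp over all probes, with the series matrix values, with the mean of the detected probes and with median centring over all probes, and 2 with median centring over detected probes or at a threshold of 1.5-fold. The count at least 2-fold lower, 1 as reported (EGR1), was 0 without background correction and the same under the other alternatives. The median log2 ratio of the members, 0.18 as reported, was 0.30 without background correction, 0.32 with normexp, 0.44 with median centring, -0.07 with the series matrix values, -0.36 at a detection threshold of 0.05 (6 genes), 0.99 over genes detected on both arrays (3 genes), -0.11 with no filter (9 genes), 0.17 with the mean of probes, 0.24 with an offset of 50 and -0.23 with median centring over all probes. With 3 to 9 genes of both signs, this median changes with which genes are kept. Elsewhere the cause was not tested. Over 519 alternative values of 53 genes, which include SRF, CRTC2, CCNB1, CDKN1A and CD3D, none had the opposite sign to the reported value where either was past 2-fold. Many of these values could not turn, since the detection filters left the reported value as it was for each gene they kept. Under 2-fold, ACTB, CDKN1A, GAPDH, NAB2, NR1D2, RXRB, S1PR4 and SP1 had the opposite sign in at least 1 alternative. At the dim end, EGR1 on the Me6TREN array lay at 113% of the lowest detected signal and KLF2 at 95.2%, so signal over background limits both ratios. No paired analysis was possible because each group has 1 array.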
